A study of Homo sapiens with 23 samples.

Results

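H4K5acK8ac, histone H4 acetylated at both lysines 5 and 8, was set against H3K27ac, histone H3 acetylated at lysine 27, over the whole genome of NCI-H23 cells. NCI-H23 is an established non-small cell lung cancer line, and all libraries come from it. The members are the 4 peak lists of these marks, 2 libraries each, among 23 samples. They hold 370742 of the 2889028 peaks in the 22 lists of the series. The other lists cover 9 targets with 2 libraries each: the single acetylations H4K5ac, H4K8ac and H4K12ac, the methylations H3K4me1, H3K4me3, H3K36me3, H3K27me3 and H3K9me3, and the bromodomain protein BRD2. An input library has no peak list here. The H4K5acK8ac antibody was a mouse monoclonal that the labels give as self-produced, and the H3K27ac antibody a mouse monoclonal from Diagenode. The protocol shared by all samples names JQ1, an inhibitor of BET bromodomain proteins, at 500 nM, or its solvent DMSO, for 24 h. No label says which of them a library received, so treatment cannot be told apart from replicate. The labels do not say whether the replicates were separate cultures, so the spread between them may be technical. The cell type was not checked against marker genes, since no gene annotation of the build was used here.

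Acetylation neutralises the charge of lysines in histone tails and gives bromodomains a site to bind. BET proteins such as BRD2 bind H4 tails acetylated at neighbouring lysines, lysines 5 and 8 among them. H3K27ac is deposited by p300 and CBP, marks active promoters and enhancers, and sits on the residue that Polycomb complexes methylate to H3K27me3, so a single lysine cannot carry both. H3K4me3 is used to mark promoters, H3K4me1 without it to mark enhancers, and H3K36me3 accumulates over the bodies of transcribed genes.

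H3K27ac covered more of the genome than H4K5acK8ac in every pairing of libraries, mostly through a larger number of peaks. The H4K5acK8ac lists held 75854 peaks over 64.3 Mb in replicate 1 and 71837 over 71.7 Mb in replicate 2. The H3K27ac lists held 122841 peaks over 97.7 Mb and 100210 over 109.2 Mb. The bases covered by H3K27ac were 1.53 ± 0.14 times those covered by H4K5acK8ac (SD, n = 4 pairings of a library of each mark, range 1.36 to 1.70). The pairings share libraries, so such an SD gives the spread between libraries and not that of independent repeats. With 2 libraries against 2, an exact permutation test cannot give a two-sided p under 0.333. Values are therefore set against the difference between replicates of a mark, with no test.

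Typical peaks of the marks did not differ in width beyond the replicates. The median width was 470 and 582 bp for H4K5acK8ac and 402 and 501 bp for H3K27ac, a ratio of 0.868 ± 0.154 with pairings on both sides of equality (0.691 to 1.07). The widest peaks differed in number, in lists of unequal length. H4K5acK8ac had 712 and 915 peaks over 5000 bp, and H3K27ac had 1638 and 2848. Peaks of up to 5000 bp made up 99.1 and 98.7% of the H4K5acK8ac lists and 98.7 and 97.2% of the H3K27ac lists. As a share of each list, peaks over 2000 bp did not separate the marks. They made up 9.15 and 12.2% of H4K5acK8ac peaks and 8.37 and 13.9% of H3K27ac peaks. Peaks over 2000 bp held 35.0% and 40.1% of the H4K5acK8ac bases. For H3K27ac they held 38.8% in replicate 1 and 52.8% in replicate 2, so this share lay near that of H4K5acK8ac in 1 of the 2 libraries. The labels of H3K27ac replicate 2, H3K4me1 replicate 2 and both H3K4me3 libraries end in an added letter M that they do not explain. The part of what it stands for in these widths was not tested. The longest H4K5acK8ac peak measured 79859 bp and the longest H3K27ac peak 120921 bp.

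**Figure D1:**
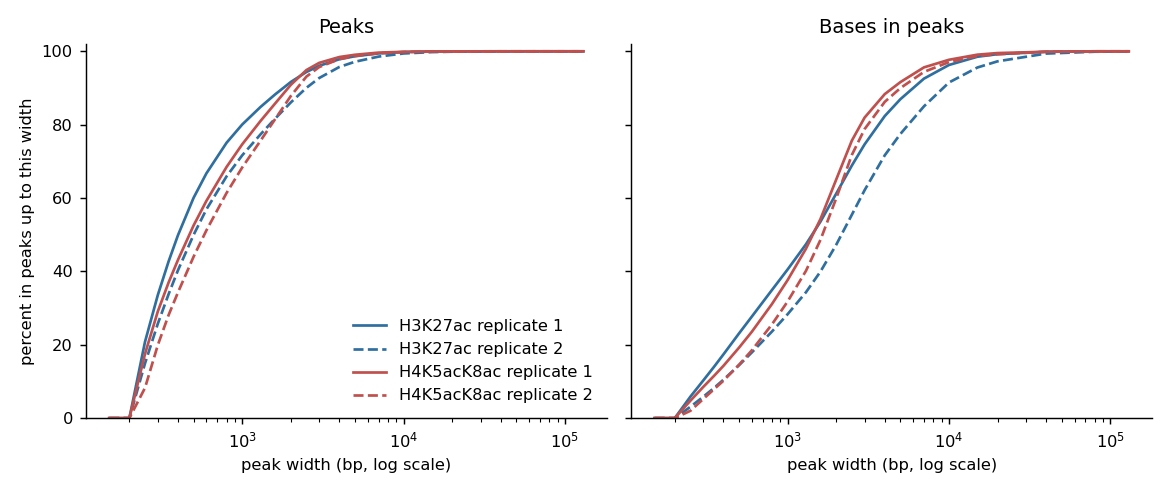
Cumulative percent of peaks (left) and of bases in peaks (right) up to a given peak width in bp on a log axis, for the 4 lists, with replicate 1 solid and replicate 2 dashed. The peak curves of the marks interleave, with medians of 402 to 582 bp, while H3K27ac replicate 2 stands apart on the right, with 52.8% of its bases in peaks over 2000 bp.

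The lists of the 2 marks shared less with each other than the replicates of either mark did. The Jaccard index, the bases covered by both lists over the bases covered by either, was 0.436 ± 0.021 between marks (4 pairings, 0.411 to 0.458). It was 0.646 between the H4K5acK8ac replicates and 0.519 between the H3K27ac replicates. The overlap was uneven in direction. Of the H4K5acK8ac peaks, 70.9 ± 5.4% overlapped an H3K27ac peak by at least 1 bp (64.3 to 76.8%), close to the 69.7 and 74.3% that overlapped a peak of the other H4K5acK8ac library. Of the H3K27ac peaks, 39.3 ± 3.6% overlapped H4K5acK8ac (36.2 to 42.9%), below the 57.9 and 60.9% found in the other H3K27ac library. Measured by bases, 76.8 ± 6.2% of H4K5acK8ac lay within H3K27ac peaks and 50.3 ± 1.3% of H3K27ac within H4K5acK8ac peaks. In lists of equal length, the 70000 strongest peaks each, 66.1% of H4K5acK8ac and 52.2% of H3K27ac peaks overlapped the other mark. Among the 10000 strongest per list the shares were 75.6 and 71.5%. When each peak was replaced by its summit ± 250 bp, the Jaccard index was 0.185. An H4K5acK8ac peak that overlapped H3K27ac lay wholly inside H3K27ac peaks in 49.8 ± 12.9% of cases, and the reverse held in 25.0 ± 8.3%.

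The overlap rose with the strength of a peak, given by the −log10 q that the peak caller assigned. Among H4K5acK8ac peaks with −log10 q of 100 or more, 99.4 to 99.97% overlapped H3K27ac, and among H3K27ac peaks of that strength 99.7 to 99.95% overlapped H4K5acK8ac. At lower strengths H3K27ac peaks were found less often in H4K5acK8ac than in their own replicate. H3K27ac peaks under 1.3 overlapped H4K5acK8ac in 11.2 to 12.9% of cases and the other H3K27ac library in 24.9 and 37.6%. Those between 2 and 5 did so in 17.2 to 18.8%, against 38.8 and 42.6% in the replicate. H3K27ac peaks between 5 and 10 overlapped H4K5acK8ac in 30.8 to 33.4% of cases and the other H3K27ac library in 54.6 and 70.0%. Those between 10 and 20 did so in 52.7 to 59.6%, against 71.7 and 94.1% in the replicate. In all 4 of these ranges every value against the other mark was below both values against the replicate. H4K5acK8ac peaks between 10 and 20 overlapped H3K27ac in 75.1 to 93.3%, against 94.4 and 98.8% in the replicate. Between 5 and 10 they did so in 61.4 to 83.8%, against 74.1 and 88.9% in the replicate, and each library was lower in H3K27ac. Between 2 and 5 the ranges overlapped, at 44.0 to 63.8% in H3K27ac and 43.8 to 57.0% in the replicate. Below 2, H4K5acK8ac peaks were found in the longer H3K27ac lists more often than in their own replicate. Between 1.3 and 2 the means were 43.8 and 34.0%, and under 1.3 they were 42.0 and 30.9%.

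**Figure D2:**
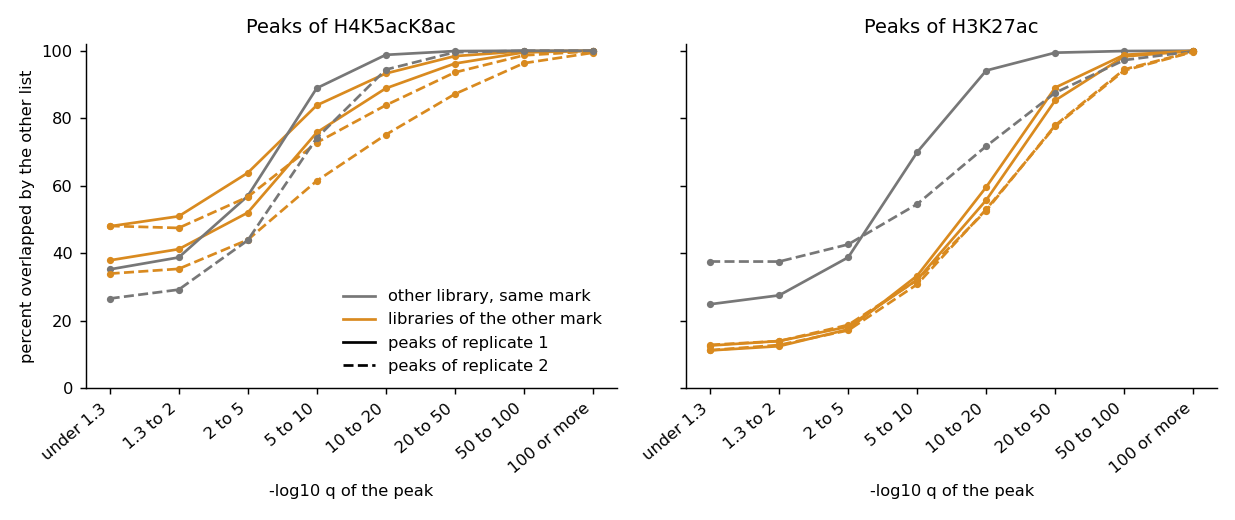
Percent of peaks overlapped by another list, by −log10 q of the peak, for H4K5acK8ac (left) and H3K27ac (right), against the other library of the same mark (grey) and the 2 libraries of the other mark (orange). For H3K27ac peaks between 5 and 10 the orange lines sit at 30.8 to 33.4% and the grey lines at 54.6 and 70.0%; all lines meet above 99% at 100 or more.

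When the peaks of the 4 lists were joined into regions wherever they overlapped, 164808 regions covering 153.0 Mb resulted. Of these, 29043 (17.6%) had a peak in all 4 libraries and are called shared. They were wide, with a median of 2131 bp, and held 54.4% of all region bases. Regions of H4K5acK8ac alone, in both of its libraries and in no H3K27ac library, numbered 5000, with a median width of 578 bp. Regions of H3K27ac alone, defined in the same way, numbered 18290, with a median of 670 bp. The remaining 112475 regions had a mark in 1 of its 2 libraries, the largest group being 75797 regions with H3K27ac in 1 library and no H4K5acK8ac. Counted over regions that a mark held in both libraries, 74.2% of the 39160 H4K5acK8ac regions were shared and 12.8% were alone. Of the 53132 H3K27ac regions, 54.7% were shared and 34.4% alone. In lists of equal length, the 70000 strongest peaks each, regions of H3K27ac alone numbered 8559, beside 25754 shared regions and 6508 of H4K5acK8ac alone.

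Regions with a single mark were weak. The median fold enrichment of the strongest peak per region, as the authors' peak caller gave it, was 9.99 and 10.1 for H4K5acK8ac in shared regions and 3.81 and 3.89 in regions of H4K5acK8ac alone. For H3K27ac it was 10.8 and 14.0 in shared regions and 3.73 and 3.21 in regions of H3K27ac alone. Raising the strength of 1 mark, with every peak of the other mark kept, left few regions without the other. Of 26145 regions with H4K5acK8ac at −log10 q of at least 5 in both libraries, 1219 (4.66%) had no H3K27ac peak, and of 14876 at 20 or more, 74 (0.497%) had none. Of 31731 regions with H3K27ac at 5 or more, 4797 (15.1%) had no H4K5acK8ac peak, and of 17217 at 20 or more, 147 (0.854%) had none. Single-mark regions were more numerous when both marks were held to the same limit, where a region counted as alone may hold a weaker peak of the other mark. With all peaks at 5 or more, 20943 regions were shared, 2459 had H4K5acK8ac alone and 8200 had H3K27ac alone. With the 10000 strongest peaks per list these numbers were 6111, 1414 and 1454. With every peak of the other mark kept, 5 of 8208 regions among the 10000 strongest of both H4K5acK8ac libraries had no H3K27ac peak. Among the 10000 strongest of both H3K27ac libraries, 0 of 8494 regions had no H4K5acK8ac peak.

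The regions with the highest enrichment in the weaker library, at most 1 per chromosome, show these classes at single loci, with hg19 coordinates. The shared region chr1:181101916-181106928 reached a fold enrichment of 78.4 and 77.6 for H4K5acK8ac and 77.0 and 80.5 for H3K27ac. It had H3K4me1 and BRD2 in both libraries and no H3K4me3 peak. The shared regions chr17:1615251-1624723 and chr9:132173071-132181106 had H3K4me3, H3K4me1 and BRD2 in both libraries. H4K5acK8ac enrichment there was 91.7 and 78.4 on chromosome 17 and 89.2 and 72.4 on chromosome 9. The widest shared region, chr15:67354362-67475282, spanned 120921 bp. It was split into 31 and 20 H4K5acK8ac peaks and 17 H3K27ac peaks in replicate 1, and was a single peak in H3K27ac replicate 2.

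Single-mark loci reached lower values. The strongest region of H4K5acK8ac alone, chr11:57112196-57113368, had enrichments of 30.6 and 28.8, with H4K5ac, H4K8ac, H4K12ac, H3K4me1 and BRD2 peaks in both libraries and no H3K4me3 or H3K36me3 peak. The region chr22:47655092-47656381, at 17.8 and 20.5, carried H3K27me3, H3K9me3 and BRD2 in both libraries and no H3K4 methylation peak. The region chr18:23501590-23502452, at 16.7 and 15.8, had the 3 single H4 acetylations and no methylation peak in either library. The strongest region of H3K27ac alone, chr1:149782121-149783481, had enrichments of 35.9 and 21.0, with H3K4me3 and H3K4me1 in both libraries, each single H4 acetylation in 1 library, and no BRD2 peak. The next, on chromosome 8, had enrichments of 22.5 and 18.5 and carried H3K4me1 and H4K5ac in both libraries and no H3K36me3, H3K4me3 or BRD2 peak. The region chr4:39706951-39709543, at 15.1 and 13.8, carried H3K4me1 and H3K36me3 in both libraries and no H3K4me3 or BRD2 peak. The widest single-mark regions, also on chromosome 8, measured 3376 bp for H4K5acK8ac and 8824 bp for H3K27ac. Each carried H3K9me3 and H4K5ac in both libraries. The first also had H3K27me3, H4K8ac and H4K12ac in both libraries, and the second H3K4me1 and H3K36me3. Their widths came from replicate 2, whose peak covered 100% of each region. Replicate 1 covered 28.4% of the H4K5acK8ac region and 3.09% of the H3K27ac region.

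The 3 classes stood in different H3K4 methylation contexts. A region was counted for a target when both libraries of the target had a peak in it. Shared regions had H3K4me3 in 53.5% of cases, regions of H4K5acK8ac alone in 18.2% (910 of 5000) and regions of H3K27ac alone in 3.02% (552 of 18290), beside 12.8% of all regions. H3K4me1 was called in 86.2% of shared regions, 39.5% of regions of H4K5acK8ac alone and 58.9% of regions of H3K27ac alone, beside 41.8% of all regions. Among regions over 500 and up to 1000 bp wide these class shares were 60.8, 42.0 and 57.8%. At that width shared regions and regions of H3K27ac alone thus lay close. The enhancer-like context, H3K4me1 in both libraries with no H3K4me3 peak, made up 37.9%, 26.9% and 56.1% of the 3 classes in the same order, beside 30.9% of all regions. Neither methylation was called in any library in 2.23% of shared regions, 28.98% of regions of H4K5acK8ac alone and 16.6% of regions of H3K27ac alone, beside 34.6% of all regions. H3K27ac alone thus lay mostly in H3K4me1 chromatin and rarely with H3K4me3, while H4K5acK8ac alone was spread over all contexts, in shares closer to those of all regions.

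**Figure D3:**
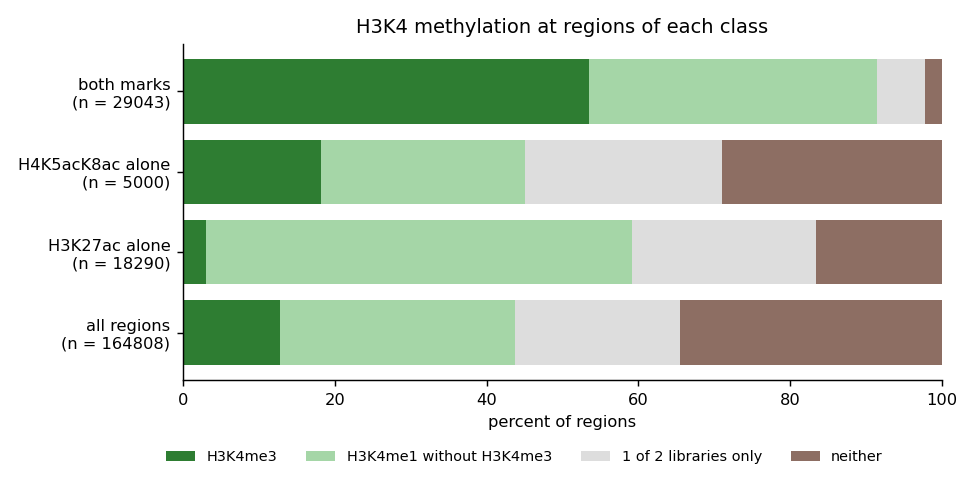
Percent of regions of each class by H3K4 methylation: H3K4me3 in both libraries, H3K4me1 in both without H3K4me3, a methylation in 1 of 2 libraries only, or neither. The H3K4me3 part shrinks from 53.5% of shared regions to 18.2% with H4K5acK8ac alone and 3.02% with H3K27ac alone, and the part with neither is 28.98% with H4K5acK8ac alone, below the 34.6% of all regions.

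The same order held for single peaks and single libraries. H4K5acK8ac peaks that overlapped H3K27ac had H3K4me3 in 40.9 ± 1.7% of cases and those that did not in 12.3 ± 1.5% (SD, n = 8 combinations with a context library). The difference was 28.7 ± 0.7 percentage points, from 27.6 to 29.2. H3K27ac peaks with and without H4K5acK8ac had H3K4me3 in 41.9 ± 2.3% and 3.22 ± 0.64%, a difference of 38.7 ± 1.9 points, from 36.3 to 41.1. Both differences were many times the spread between libraries. The difference shrank to 11.5 and 13.6 points when the 10000 strongest peaks of each list were compared. For H3K4me1 without H3K4me3 the H3K27ac peaks with and without H4K5acK8ac did not differ beyond the spread, at a difference of −3.21 ± 10.12 points and with both signs among the 8 combinations. The H3K4me1 lists themselves were unequal, with 141240 and 204854 peaks.

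The order of the classes for H3K4me3 was the same within a range of widths. Among regions over 500 and up to 1000 bp wide, H3K4me3 was called in 29.1% of 3446 shared regions, 18.9% of 2481 regions of H4K5acK8ac alone and 2.79% of 7953 regions of H3K27ac alone. At like enrichment of H4K5acK8ac, taken as the lower of the 2 library values, the direction changed with strength. From 2 to 4, H3K4me3 was called in 8.74% of shared regions and 12.02% of regions of H4K5acK8ac alone, and from 4 to 6 in 23.5 and 29.0%. From 6 to 10 the shares were 50.2 and 41.4%, and at 10 or more they were 84.8% and, over 59 regions, 42.4%. At an H3K27ac enrichment of 4 to 6, H3K4me3 was called in 27.8% of shared regions and 4.74% of regions of H3K27ac alone. Shared regions were also higher in the other 3 ranges of H3K27ac enrichment.

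Where H3K4me3 was absent from both libraries, the nearest H3K4me3 peak lay at a median distance of 26.7 kb from shared regions, 23.4 kb from regions of H4K5acK8ac alone and 16.9 kb from regions of H3K27ac alone. Of the last, 23.7% lay within 5 kb of an H3K4me3 peak and 8.13% beyond 100 kb. For shared regions these shares were 15.6% and 17.6%. Over all regions without H3K4me3 the median was 23.6 kb, with 17.2% within 5 kb and 14.7% beyond 100 kb. Within 1 kb, regions of H3K27ac alone and of H4K5acK8ac alone did not stand apart, at 5.26 and 5.22%.

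H3K36me3, the gene body mark, separated the single-mark classes most widely of the 9 targets. It was called in 61.5% of regions of H3K27ac alone (11240 of 18290) and in 0.26% of regions of H4K5acK8ac alone (13 of 5000, Wilson 95% interval 0.152 to 0.444%), beside 19.5% of shared regions and 31.2% of all regions. The target's libraries agreed, with 65.7 and 64.9% of regions of H3K27ac alone and 0.36 and 0.36% of regions of H4K5acK8ac alone. By bases, H3K36me3 peaks covered 61.0 and 60.2% of the first class and 0.210 and 0.174% of the second. Regions with H3K27ac in a single library and no H4K5acK8ac also had it, in 42.4% of cases. Such intervals cover counting error only.

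The H3K36me3 contrast was present in regions of like width, in each H3K4 methylation context named here, and among strong regions. Among regions over 500 and up to 1000 bp wide the shares were 61.6% with H3K27ac alone, 4.29% with both marks and 0.161% with H4K5acK8ac alone. In the H3K4me3 context, 44.6% of regions of H3K27ac alone carried H3K36me3. None of the 910 regions of H4K5acK8ac alone there did, which allows a share of up to 0.330%. In the H3K4me1 context the share was 61.3% for H3K27ac alone, and none of 1344 regions of H4K5acK8ac alone, which allows up to 0.223%. At −log10 q of at least 5 in both libraries, 70.7% of regions with H3K27ac and no H4K5acK8ac carried H3K36me3, as did 0.574% of those with H4K5acK8ac and no H3K27ac. At the summits of single peaks, H3K36me3 was found in 43.1 ± 11.2% of H3K27ac peaks without H4K5acK8ac and in 7.05 ± 1.37% of those with it. Over whole peaks, the H3K36me3 share of H3K27ac peaks without H4K5acK8ac exceeded that of H4K5acK8ac peaks without H3K27ac by 45.4 ± 11.7 points, and by 24.1 ± 4.0 points when lists were cut to 10000 peaks. The SD at the summits reflects the libraries: without H4K5acK8ac, 52.7 to 54.4% of H3K27ac replicate 1 peaks had it and 31.5 to 33.8% of replicate 2 peaks. The corresponding values for H4K5acK8ac peaks were 1.83 ± 0.64% without H3K27ac and 9.99 ± 1.12% with it.

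The other H4 acetylations were more frequent in regions of H4K5acK8ac alone than in regions of H3K27ac alone. The classes were set by peaks of H4K5acK8ac, which names lysines 5 and 8. H4K5ac and H4K8ac are therefore not independent of the class definition. H4K5ac was called in 90.9% of shared regions, 60.1% of regions of H4K5acK8ac alone and 8.86% of regions of H3K27ac alone, beside 26.8% of all regions. H4K8ac was called in 63.0%, 39.4% and 8.23%, beside 19.6% of all regions. H4K12ac, a residue that the label of the dual antibody does not name, was called in 72.2%, 34.9% and 4.75%, beside 17.6% of all regions. The H4K8ac libraries were unequal: replicate 1 had a peak in 70.7% and replicate 2 in 45.8% of regions of H4K5acK8ac alone. In regions of H3K27ac alone they had a peak in 32.6 and 13.0%. Shared regions were wider than the other classes. Among regions over 500 and up to 1000 bp wide, H4K5ac was called in 70.4% of shared regions and 68.0% of regions of H4K5acK8ac alone. H4K8ac was called there in 34.4 and 43.0%, and H4K12ac in 34.5 and 39.3%. At that width shared regions thus did not stand above regions of H4K5acK8ac alone by more than a few points. Regions of H3K27ac alone stayed low, at 7.38, 7.17 and 3.62% for the 3 acetylations. At a lowest H3K27ac enrichment between 4 and 6, H4K5ac was called in 84.5% of shared regions and 13.6% of regions of H3K27ac alone.

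BRD2 was called mainly in shared regions when the 3 classes were compared. Both BRD2 libraries had a peak in 39.2% of shared regions (11385 regions), 1.02% of regions of H4K5acK8ac alone (51 regions) and 0.0656% of regions of H3K27ac alone (12 regions), beside 7.12% of all regions. The single BRD2 libraries gave higher shares, 4.10 and 6.98% of regions of H4K5acK8ac alone and 2.76 and 1.19% of regions of H3K27ac alone, against 42.8 and 55.6% of shared regions. Within shared regions BRD2 was called in 65.4% of those with H3K4me3 and 9.63% of those with H3K4me1 and no H3K4me3. These contexts differed in acetylation strength. On a rank scale with the median of all shared regions at 49.9 to 50.0, the 4 libraries had median enrichment ranks of 68.9 to 70.8 with H3K4me3. With H3K4me1 and no H3K4me3 they were 28.1 to 32.9. The BRD2 share rose with the strength of the acetylation. Shared regions with a lowest H4K5acK8ac enrichment of 4 to 6 had BRD2 in 2.91%, those of 6 to 10 in 16.4% and those of 10 or more in 77.9%. At an enrichment of 6 to 10, 4.08% of 343 regions of H4K5acK8ac alone had BRD2, and at 10 or more 25.4% of 59 regions. BRD2 was thus less frequent without H3K27ac also within these ranges of H4K5acK8ac enrichment, over few regions. The range of 10 or more is open, so enrichment may differ within it. Shared regions were also wider, with medians of 1942 against 974 bp at 6 to 10 and 2708 against 1280 bp at 10 or more. The shares were not adjusted for width.

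The repressive marks were rare but uneven. H3K27me3, the Polycomb mark, was called in 5.26% of regions of H4K5acK8ac alone (263 of 5000), 1.32% of shared regions and 0.0875% of regions of H3K27ac alone (16 of 18290), beside 0.989% of all regions. Most of the 263 regions also carried H3K4me3: of the 910 regions of H4K5acK8ac alone with H3K4me3, 213 (23.4%) had H3K27me3. In the same context it was called in 2.29% of shared regions and 1.27% of regions of H3K27ac alone. H3K9me3, found in constitutive heterochromatin and at zinc finger genes, was called in 6.45% of shared regions, 2.66% of regions of H4K5acK8ac alone and 1.97% of regions of H3K27ac alone, beside 3.33% of all regions. Shared regions are wider, and at the summits of single peaks H3K9me3 differed little, at 2.58 ± 0.38% of H4K5acK8ac peaks with H3K27ac and 3.63 ± 0.46% of those without.

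**Figure D4:**
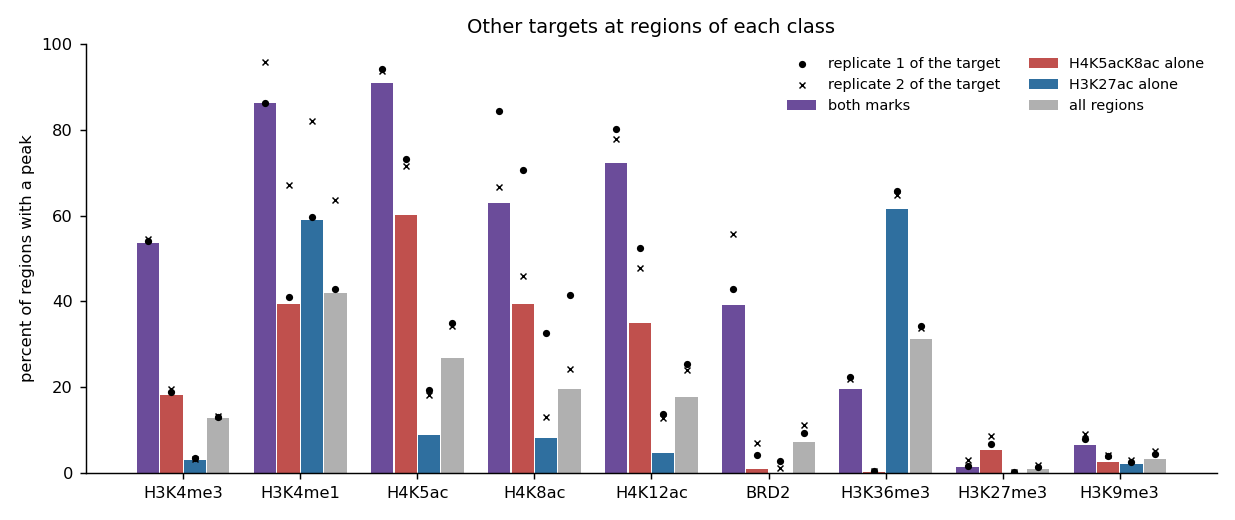
Percent of regions of each class, and of all regions, with a peak of each of the 9 other targets; bars count regions with a peak in both libraries of the target, and points give each library by itself. H3K36me3 is the target at which regions of H3K27ac alone (61.5%) stand above shared regions (19.5%), while H4K5acK8ac alone is at 0.26%.

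Inside shared regions the marks ranked regions less alike than replicates did. Each library ranked the 29043 regions by its highest fold enrichment. Spearman's rho, across regions and not across independent replicates, was 0.711 to 0.789 between marks, 0.928 between the H4K5acK8ac replicates and 0.898 between the H3K27ac replicates. Among the 13299 shared regions of up to 2000 bp, where width varies less, the values were 0.490 to 0.591, 0.858 and 0.756. In 8592 shared regions (29.6%) H4K5acK8ac ranked higher in all 4 pairings, and in 9823 (33.8%) H3K27ac did. With H3K4me3 the directions were balanced, at 34.9 and 34.8%. With H3K4me1 and no H3K4me3, H4K5acK8ac ranked higher in 22.9% and H3K27ac in 34.9%.

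Several targets differed between these leanings in the direction seen between the single-mark classes. H3K36me3 was called in 9.16% of regions leaning to H4K5acK8ac and 31.8% of those leaning to H3K27ac. In the H3K4me1 context the shares were 4.63% of 2528 and 39.0% of 3842 regions. H4K8ac was called in 79.8 and 49.8%, H4K12ac in 87.4 and 65.7%, and BRD2 in 50.7 and 36.6%. H3K27me3 was called in 2.90 and 0.234%. H3K4me1 was nearly equal, at 87.8 and 87.5%, and H3K9me3 went the other way than in the single-mark classes, at 4.71 and 6.12%. Regions leaning to H4K5acK8ac were narrower, with a median width of 1836 bp against 2617 bp, so that they had less room for a peak of any target. The higher shares of H4K8ac, H4K12ac, BRD2 and H3K27me3 in the narrower regions, and the lower share of H3K36me3, were not adjusted for width.

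Over peaks of every width with H3K4me3, summits, the highest point of each peak, lay farther apart between marks than between replicates. The gap was larger from H4K5acK8ac than from H3K27ac peaks. In that context the median distance from an H4K5acK8ac summit to the summit of the strongest overlapping H3K27ac peak was 101 to 127 bp over the 4 pairings, and that from an H3K27ac summit to H4K5acK8ac 77 to 89 bp. It was 56 and 65 bp between H4K5acK8ac replicates and 55 and 60 bp between H3K27ac replicates. Within 150 bp, about the length of DNA on a nucleosome, lay 52.7 to 56.9% of pairs counted from H4K5acK8ac, 60.1 to 63.8% of those from H3K27ac and 67.1 to 75.0% of those between replicates. With H3K4me1 and no H3K4me3 the ranges overlapped, at 141 to 268 bp from H4K5acK8ac, 123 to 137 bp from H3K27ac and 107 to 170 bp between replicates. Over all peaks the median was 158 ± 34 bp from H4K5acK8ac summits, from 126 to 204 bp. From H3K27ac summits it was 104 to 119 bp, inside the 82 to 137 bp between replicates, so over all peaks no separation beyond the replicates was seen in that direction. When both peaks were at most 1000 bp wide, the medians were 90 to 92 bp between marks and 87 to 96 bp between replicates, so at that width the separation did not exceed the replicates'. With H3K4me3 and that width limit the ranges overlapped, at 59.5 to 70 bp between marks and 57 to 63 bp between replicates.

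**Figure D5:**
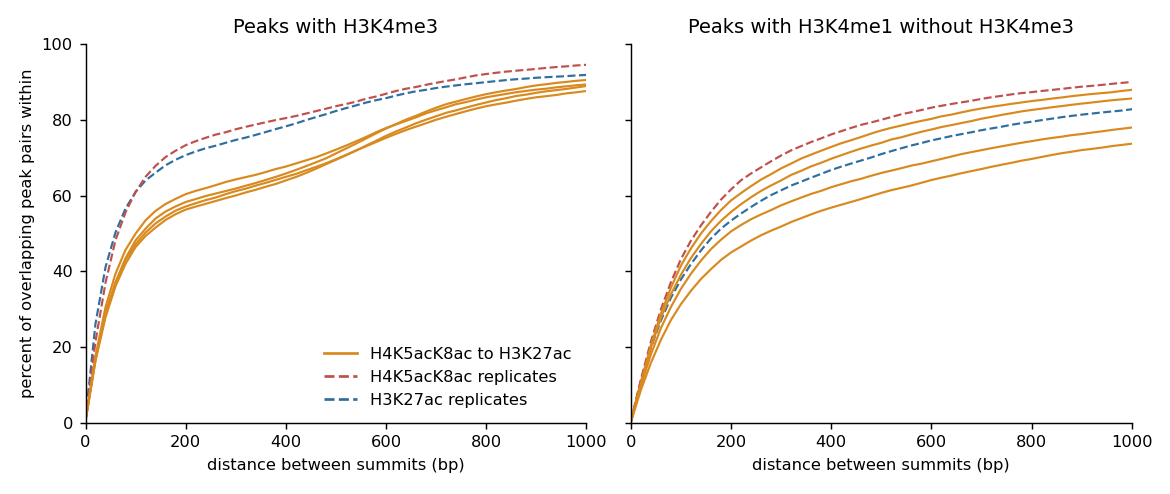
Cumulative percent of overlapping peak pairs whose summits lie within a distance in bp, for H4K5acK8ac peaks against H3K27ac (orange, 4 pairings) and for replicates of each mark (dashed, from replicate 1 to replicate 2), with H3K4me3 (left) and with H3K4me1 without H3K4me3 (right). On the left the orange curves run below both dashed curves; on the right they lie on both sides of the H3K27ac replicate curve.

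The marks also took different places relative to the H3K4me3 peak. Over 16303 to 17390 H3K4me3 peaks that overlapped both marks, the strongest H4K5acK8ac summit lay at a median of 302 to 363 bp from the H3K4me3 summit, and the strongest H3K27ac summit at 142 to 150 bp. The 8 combinations of libraries did not overlap. The replicate error of the H3K4me3 summit itself was small, with medians of 27 and 28 bp between its libraries. Peak by peak, H3K27ac was the nearer mark in 57.5 to 61.4% of H3K4me3 peaks and H4K5acK8ac in 37.9 to 41.7%. The acetylation summits lay on opposite sides of the H3K4me3 summit in 20.6 to 23.1%.

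The balance of the classes varied moderately between chromosomes. Among regions with H3K27ac in both libraries, the share without H4K5acK8ac ran from 30.8% on chromosome 4 to 45.2% on chromosome 22, with a median of 37.9% over the autosomes and X. The gene-rich chromosomes 17 and 19 were at 44.1 and 42.0%. Among regions with H4K5acK8ac in both libraries, the share without H3K27ac ran from 11.4% on chromosome X to 17.8% on chromosome 2, with a median of 14.9%. These shares leave out regions in which the other mark was called in 1 library.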

How the data were processed

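Chromatin immunoprecipitation of 11 targets from NCI-H23 cells was sequenced in 2 libraries each, and each library has its own deposited peak list. Reads were processed with BWA and MACS2 on hg19, per the submitters' processing notes; versions and thresholds are not given in the sources used here. The deposited lists give a fold enrichment (a ratio over background), −log10 p and −log10 q per peak, and the lowest −log10 p lay near 2, so weak peaks are kept. These values were used as the authors gave them; the deposited score column was not used. Read depth is unknown, and no interval for depth was made.

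Peaks on chromosomes 1 to 22, X and Y were used, which left out 6 peaks of H4K5acK8ac replicate 2. Overlap meant at least 1 bp. Regions were unions of overlapping peaks of the 4 lists. Enrichment of a region is its highest peak. Overlap, merging and summit functions were tested on simulated intervals. Named regions were, per class, the 3 with the highest lowest fold enrichment, at most 1 per chromosome, and the widest; coordinates on chromosome 8 are not reported here. The members, lists and comparisons were chosen with earlier results of these data known. Alternatives were stricter and looser q limits, equal list lengths, other overlap and merging rules, and leaving out each library. Reference tables were on another build, so no gene was assigned. Python 3.11.15, numpy 2.4.6, scipy 1.17.1, pandas 2.3.3 and matplotlib 3.10.9 were used.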

Additional observations from a re-analysis of the deposited data

How the results depend on the processing

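Of 90 alternative values, 56 moved by less than the spread between pairings of libraries (counts: by less than 1.5 times), 34 moved by more, and none of the differences changed sign. The cause of the moves was not tested beyond the shorter lists and narrower windows that the settings themselves make. Replicate numbers were not treated as a pairing of the samples. Deviations of same-numbered libraries of the 2 marks correlated at 0.087 over 18824 bins of 100000 bp. With 2 libraries per mark, this value cannot show whether same-numbered libraries share a culture or treatment. Under the replicate block, which uses same-numbered pairs alone, the Jaccard index was 0.443, the overlap shares 71.3 and 39.6%, the summit distance 150.5 bp and the H3K4me3 differences 28.2 and 38.7 points; none moved beyond the spread.

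Cutting all 4 lists to their 10000 strongest peaks gave a Jaccard index of 0.464, 71.5% of H3K27ac peaks with H4K5acK8ac, a summit distance of 67.3 bp, H3K4me3 differences of 11.5 and 13.6 points, and shared, H4K5acK8ac-alone and H3K27ac-alone regions numbering 6111, 1414 and 1454. With −log10 q of at least 5 in all lists, the index was 0.474, the shares 80.1 and 50.2%, the distance 118 bp, the differences 30.6 and 53.1 points, and single-mark regions 2459 and 8200. With at least 50% of the peak covered, the shares were 64.3 and 31.9% and the differences 25.8 and 44.0 points. With windows of 250 bp on each side of summits, the index was 0.185, the shares 52.2 and 34.9%, and the differences 15.4 and 32.4 points. With peaks of at most 1000 bp the distance was 90.5 bp. Merging over gaps of 500 bp left 11383 regions of H3K27ac alone. Counting a mark called in at least 1 library gave 46862, 23859 and 94087 regions.

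Chosen after seeing the data, lists of equal length (70000 strongest) gave an index of 0.468, 52.2% of H3K27ac peaks with H4K5acK8ac and 8559 regions of H3K27ac alone. The H3K36me3 share of H3K27ac peaks without H4K5acK8ac, less that of H4K5acK8ac peaks without H3K27ac, was 45.4 points, from 34.6 to 56.3 when 1 library was left out, and 24.1 with the 10000 strongest.

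With no depth or signal used here, a missing peak was not distinguished from low coverage. The classes differ in width and strength, which was followed by strata but not modelled. Peak overlap says nothing of whether the marks sit on the same nucleosome or in the same cell.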
